A study of Mus musculus with 288 samples.

Results

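Germline genes code for proteins that act in germ cells, and the group described here is 10 of them, *Dazl*, *Mael*, *Asz1*, *Sycp3*, *Hormad1*, *Taf7l*, *Stk31*, *Slc25a31*, *Tex19.1* and *Rpl10l*, of 54232 genes in the deposited table. They were taken by name, as genes known for promoters that DNA methylation silences outside the germline. The rule used no measured value, but the names were chosen with earlier results of these data known. Their RNA was read in mouse embryonic stem cells, which the labels give as the line E14, during a 2i release. Such a release moves cells from 2i, a medium with inhibitors of MEK (PD0325901) and GSK3 (CHIR99021), into serum. The cells labelled D0 were in 2i with leukemia inhibitory factor (LIF) at 0 h, and those labelled D1 and D2 were 24 h and 48 h after the change to medium with serum and LIF. LIF was thus in the medium of every label. Single cells were sorted into plates of 96 wells and treated with a GpC methylase before lysis, and of the several layers that scNMT-seq reads from 1 cell, RNA alone was used here. DNA methylation of these genes was therefore not analysed here.

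Of 288 wells, 233 passed the limits on cells (over 200000 reads, over 2000 genes, and a mitochondrial share under 0.15), with 90 labelled D0, 50 labelled D1 and 93 labelled D2. As far as the labels show, each label was 1 culture on 1 plate, so cells are not replicates, label and plate cannot be told apart, and no test between labels was made. Passing cells had from 202157 to 43336922 reads. At equal depth, with 200000 reads drawn at random from each cell, the median number of detected genes was 7793.5, 8035 and 3945 in D0, D1 and D2. The cells labelled D1 stood apart: *Hprt* had a read in 48 of 50 of them, against 9 of 90 in D0 and 7 of 93 in D2, and its mean level was 207 CPM, reads of a cell scaled to a common total, against 3.08 and 2.68 CPM. The sum of 4 Y-linked genes was 269 CPM in D1 against 22.9 CPM in D0 and 5.21 CPM in D2. Y-linked reads were found in 96% of the cells of D1, against 3.33% and 5.38% in D0 and D2. For the origin of the line E14, the study's methods cite a report whose title names HPRT-deficient mouse embryos. Whether the cells labelled D1 belong to another subline was not tested and is not known here. In every comparison with D1 below, a difference of line and the time cannot be told apart. D2 over D0 does not use D1, but the few cells of D0 and D2 with *Hprt* or Y-linked reads were kept in it. All 10 pluripotent cell markers had reads in every label, with medians of their summed level of 6613, 6629 and 9744 CPM in D0, D1 and D2. The sum is carried by *Dppa5a* (means of 2680, 4483 and 6841 CPM) and hides changes of single markers. In D1 over D0, 5 of the 10 were lower by more than 2-fold, among them *Nanog* (log2 ratio -2.84) and *Tfcp2l1* (-4.92), and 2 were higher. Of the 13881 genes compared below, 26% were lower and 15.1% higher. In D2 over D0, 3 were lower and 3 higher, beside 27.4% and 14.1%.

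In the embryo, primordial germ cells erase most DNA methylation, and genes with CpG-rich promoters that had been methylated then switch on. In other cells such promoters are kept silent by DNA methylation and by a repressor complex, PRC1.6, whose DNA-binding subunits include E2F6 and the partners MGA and MAX. Cells in 2i have little DNA methylation, and the de novo methyltransferases DNMT3A and DNMT3B with their cofactor DNMT3L add it again in serum.

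The upstream sequences are shown because methylation and the repressors act on them. They come from RefSeq (GRCm38.p6), which had a window for all 10 genes. A window is the 250 bases before the first listed start, and letters and CpG were counted over all 250. It is printed 5′ to 3′ along the gene without the bases that lie inside the GENCODE gene, so some printed runs are shorter. Capitals mark the E-box CACGTG, the letters that MAX partners bind, and GCGGGA or its reverse complement, the core letters of an E2F6 site. Both strands were searched, and the 2 kinds of match did not overlap.
Dazl, chr17:50293637-50293870, minus strand: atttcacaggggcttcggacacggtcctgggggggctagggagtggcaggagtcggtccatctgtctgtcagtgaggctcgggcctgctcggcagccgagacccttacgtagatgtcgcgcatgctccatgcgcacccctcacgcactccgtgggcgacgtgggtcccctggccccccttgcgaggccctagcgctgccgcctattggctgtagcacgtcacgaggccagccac
Mael, chr1:166238748-166238994, minus strand: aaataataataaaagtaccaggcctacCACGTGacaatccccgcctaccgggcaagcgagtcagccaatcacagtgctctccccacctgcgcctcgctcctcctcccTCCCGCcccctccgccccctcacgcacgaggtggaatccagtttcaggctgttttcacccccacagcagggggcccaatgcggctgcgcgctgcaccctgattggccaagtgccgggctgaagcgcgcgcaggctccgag
Hormad1, chr3:95559427-95559676, plus strand: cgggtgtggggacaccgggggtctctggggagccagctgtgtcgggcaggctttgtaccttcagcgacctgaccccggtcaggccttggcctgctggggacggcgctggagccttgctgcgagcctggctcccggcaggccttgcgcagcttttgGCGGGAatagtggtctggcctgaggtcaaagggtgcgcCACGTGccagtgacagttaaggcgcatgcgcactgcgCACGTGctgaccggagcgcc
Slc25a31, chr3:40708621-40708854, plus strand: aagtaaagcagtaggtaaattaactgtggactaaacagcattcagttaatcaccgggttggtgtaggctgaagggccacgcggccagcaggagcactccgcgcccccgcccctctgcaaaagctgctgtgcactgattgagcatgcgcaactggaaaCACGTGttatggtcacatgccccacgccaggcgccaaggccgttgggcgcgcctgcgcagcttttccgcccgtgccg
Tex19.1, chr11:121145893-121146142, plus strand: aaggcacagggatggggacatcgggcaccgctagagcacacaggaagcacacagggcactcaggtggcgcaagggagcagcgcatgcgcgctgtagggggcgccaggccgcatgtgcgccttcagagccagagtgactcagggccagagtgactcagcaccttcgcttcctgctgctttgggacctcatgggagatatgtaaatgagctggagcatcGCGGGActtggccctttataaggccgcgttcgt
Rpl10l, chr12:66284402-66284651, minus strand: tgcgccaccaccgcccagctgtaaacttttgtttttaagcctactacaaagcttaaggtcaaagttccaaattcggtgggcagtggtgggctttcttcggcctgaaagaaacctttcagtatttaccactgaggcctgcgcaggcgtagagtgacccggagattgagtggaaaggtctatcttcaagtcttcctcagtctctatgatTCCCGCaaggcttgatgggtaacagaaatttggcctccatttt
CACGTG was found in the windows of 6 of the 10 genes (*Mael*, *Sycp3*, *Hormad1*, *Taf7l*, *Stk31* and *Slc25a31*) and in 6.05% of the 27025 windows of all genes. GCGGGA was found in 5 (*Mael*, *Sycp3*, *Hormad1*, *Tex19.1* and *Rpl10l*), and in 16.9% of all windows. *Mael*, *Sycp3* and *Hormad1* had both, which 1.47% of all windows had. *Dazl* and *Asz1* had neither, which says only that these letters are not in these windows. At least 10 CpG were found in 9 of the 10 windows and in 38.2% of all windows. *Rpl10l*, with 8, was the exception. The median was 16.5 CpG for the 10 genes and 6 for all genes. A match is a description of the letters and not a bound site.

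None of the 10 genes was without reads: each had a read in at least 1 cell of every label. *Asz1* was read in too few cells for the comparison between labels, which took genes whose share of cells at equal depth, averaged over the 3 labels, was 5% or more. The other 9 were among the 13881 genes compared. Levels are given as mean CPM ± SD over cells, and shares of cells at 200000 reads with exact Clopper-Pearson 95% intervals. Ratios are differences of log2(mean CPM + 1), which understate the ratio of a gene with few reads. Levels use all reads, so more cells can have a read in a level than in a share. Cells of D1 were read deepest, with a median of 7956161.5 reads against 1610758.5 in D0 and 2162090 in D2. Medians over cells with a read are therefore not at equal depth between labels. Gene positions below are those of GENCODE M21 on GRCm38. Intervals of shares cover the sampling of cells only. The deposited counts carry no molecular identifiers, so several reads can come from the same molecule. Counting intervals of read ratios treat reads as independent and can be too narrow. In the plot of levels by cell, the labels overlap for every gene.

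**Figure D1:**
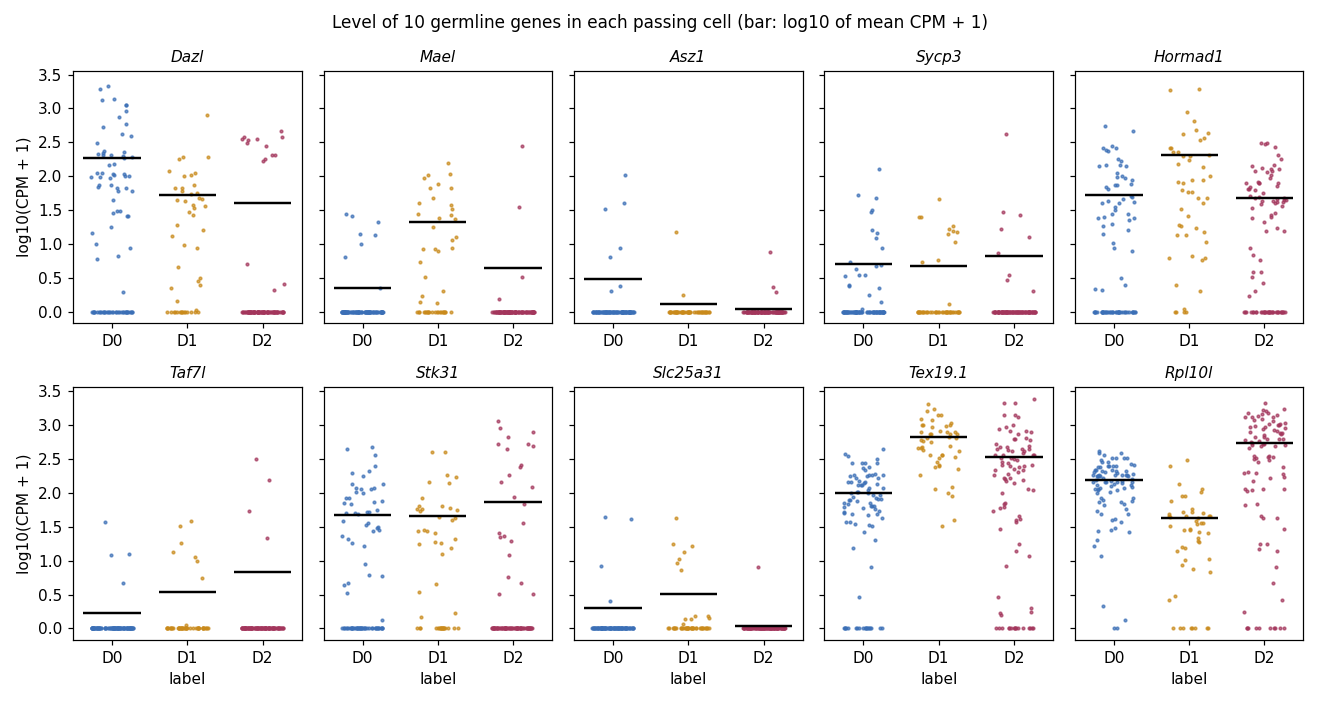
Level of each of the 10 germline genes in each passing cell, as log10(CPM + 1) on the vertical axis, for 90 cells labelled D0, 50 labelled D1 and 93 labelled D2. Each point is a cell, points at 0 are cells with no read, and the black bar is log10 of the mean CPM + 1. The cells of the 3 labels overlap for every gene, and *Tex19.1* has a read in all 50 cells of D1.

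*Dazl* (chr17:50279395-50293636, minus strand), which codes for an RNA-binding protein that controls translation in germ cells, was lower in D1 and D2 than in D0. A read at equal depth was found in 53 of 90 cells of D0 (58.9%, 48.0% to 69.2%), 29 of 50 of D1 (58%, 43.2% to 71.8%) and 12 of 93 of D2 (12.9%, 6.85% to 21.5%). The median share over all genes compared was 55.6%, 54% and 16.1% in D0, D1 and D2. In D0, the 54 cells with a read among all reads had levels from 0.969 to 2131 CPM with a median of 108 CPM. In D1, 35 cells had from 0.0542 to 793 CPM with a median of 42.2 CPM. In D2, 15 cells had from 1.14 to 458 CPM with a median of 275 CPM. The cells of D2 that still read *Dazl* thus included high ones: 12 of 93 were over 100 CPM, against 30 of 90 in D0 and 8 of 50 in D1. Over all cells the mean was 188 ± 404, 51.5 ± 118 and 38.8 ± 106 CPM in D0, D1 and D2. The log2 ratio was -1.85 for D1 over D0, -2.24 for D2 over D0 and -0.40 for D2 over D1. In plate columns 1 to 6 alone, D1 over D0 was -0.75 and no longer past 2-fold. D2 over D0 was between -2.69 and -1.63 in all 11 alternatives. D2 over D1 was 0.19 in plate columns 7 to 12, and no direction is read from it.

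Of the next 4 genes, *Mael*, *Asz1* and *Tex19.1* belong to the defence of the germline genome against transposons. *Mael* and *Asz1* code for proteins of the cytoplasmic granules in which piRNAs, small RNAs that guide transposon silencing, are made. *Mael* (chr1:166201201-166238747, minus strand) was read in more cells of D1 than of the other labels: 24 of 50 (48.0%, 33.7% to 62.6%), against 6 of 90 in D0 (6.67%, 2.49% to 13.9%) and 2 of 93 in D2 (2.15%, 0.262% to 7.55%). In cells with a read the median was 12.9 CPM in D0 (1.27 to 27.2), 22.8 CPM in D1 (0.365 to 158) and 18.3 CPM in D2 (0.563 to 280). The mean was 1.26 ± 4.81, 19.9 ± 34.6 and 3.40 ± 29.2 CPM in D0, D1 and D2. The log2 ratio of D1 over D0 was 3.21 and stayed past 2-fold in all 12 alternatives, from 1.41 to 4.0. A single cell held 88.3% of the D2 sum. D2 over D0 was 0.96 with that cell and down to -0.69 when 1 cell was left out, so no direction is read from it.

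*Asz1* (chr6:18050964-18109061, minus strand) had the fewest reading cells when summed over the labels. It had a read at equal depth in 6 cells of D0 (6.67%, 2.49% to 13.9%), 1 of D1 (2.00%, 0.0506% to 10.6%) and 2 of D2 (2.15%, 0.262% to 7.55%). The highest cell had 102, 14.2 and 6.55 CPM in D0, D1 and D2. Summed over the thinned cells it had 33 reads in D0, 4 in D1 and 2 in D2, and the counting interval of the log2 ratio of reads was -7.20 to -2.13 for D2 over D0. Most of each sum came from 1 cell: 54.1% in D0, 94.8% in D1 and 73.8% in D2.

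*Stk31* (chr6:49395604-49469501, plus strand), which codes for a protein with a Tudor domain and a kinase-like domain, was read in the smallest share of cells in D2, where its mean was the highest of the 3. A read was found in 42 cells of D0 (46.7%, 36.1% to 57.5%), 29 of D1 (58%, 43.2% to 71.8%) and 24 of D2 (25.8%, 17.3% to 35.9%). In cells with a read the median was 51.6, 40.9 and 122 CPM in D0, D1 and D2, and the highest cells had 465, 401 and 1141 CPM. The mean was 45.6 ± 88.6, 44.8 ± 85.1 and 72.3 ± 206 CPM in D0, D1 and D2. The log2 ratios were -0.02 for D1 over D0, 0.65 for D2 over D0 and 0.68 for D2 over D1, none past 2-fold. D2 over D1 went from 0.01 in plate columns 1 to 6 to 1.74 in columns 7 to 12 and was past 2-fold in 3 of 12 alternatives, and D2 over D0 went from 0.06 with reads summed per label to 1.14 in columns 1 to 6. D1 over D0 went from -1.40 in plate columns 7 to 12 to 1.13 in columns 1 to 6 and was -0.93 with reads summed per label, so no direction is read from it.

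*Tex19.1* (chr11:121146143-121148319, plus strand), whose product restrains retrotransposons in germ cells and placenta, was higher in D1 and D2 than in D0. It was read in 71 cells of D0 (78.9%, 69% to 86.8%), all 50 of D1 (100%, 92.9% to 100%) and 73 of D2 (78.5%, 68.8% to 86.3%). The level in cells with a read ran from 1.86 to 442 CPM in D0 (median 98.1 CPM), from 31.9 to 2032 CPM in D1 (median 592 CPM) and from 0.568 to 2435 CPM in D2 (median 259 CPM). The mean was 96.9 ± 96.1, 654 ± 456 and 340 ± 469 CPM in D0, D1 and D2. The log2 ratio was 2.74 for D1 over D0, from 2.55 to 2.95 in the alternatives, and 1.80 for D2 over D0, from 1.65 to 1.97. D2 over D1 was -0.94. The levels of D0 and D2 differed although their shares of cells with a read were nearly equal, and more cells of D2 passed 100 CPM, with 57 of 93 against 34 of 90. Reads could be shared with the neighbouring paralog *Tex19.2*, but *Tex19.1* held on average 98.1% of the reads of the pair in D0, 98.9% in D1 and 99.9% in D2, over the 72, 50 and 77 cells with a read of either.

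The meiotic chromosome axis is the protein scaffold along which homologous chromosomes pair, and *Hormad1* and *Sycp3* code for parts of it. *Hormad1* (chr3:95559677-95587671, plus strand) was read in 46 cells of D0 (51.1%, 40.3% to 61.8%), 43 of D1 (86%, 73.3% to 94.2%) and 54 of D2 (58.1%, 47.4% to 68.2%). In cells with a read the median was 48.9 CPM in D0 (1.13 to 551), 80.2 CPM in D1 (0.102 to 1927) and 46.6 CPM in D2 (0.728 to 313). The mean was 52 ± 97.6, 207 ± 397 and 47.4 ± 70.5 CPM in D0, D1 and D2. D1 was thus above both other labels, with log2 ratios of 1.98 for D1 over D0 and -2.11 for D2 over D1, while D2 over D0 was -0.13. D1 over D0 was 0.93 in plate columns 7 to 12 and 2.92 in columns 1 to 6, and D2 over D0 was -1.0 with reads summed per label and 0.24 in plate columns 1 to 6. The paralog *Hormad2* had 8.20, 25.4 and 25.4 CPM in D0, D1 and D2, and *Hormad1* held on average 69.4%, 74.4% and 77.9% of the reads of the pair.

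*Sycp3* (chr10:88459569-88473236, plus strand) was read in 11 cells of D0 (12.2%, 6.26% to 20.8%), 11 of D1 (22%, 11.5% to 36%) and 6 of D2 (6.45%, 2.40% to 13.5%). Its mean was 4.03 ± 15.8, 3.76 ± 8.74 and 5.57 ± 44.1 CPM in D0, D1 and D2, and the log2 ratios were -0.08 for D1 over D0, 0.39 for D2 over D0 and 0.47 for D2 over D1. A single cell with 424 CPM held 81.9% of the D2 sum, and D2 over D0 was between -1.31 and 0.85 when each cell was left out in turn. All 3 ratios changed sign in plate columns 1 to 6, and no direction is read from them. *Sycp3* overlaps an exon of *Chpt1* on the opposite strand, and whether the counting used strand is not given in the sources used here, so its reads are uncertain.

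The last 3 genes are germline copies of genes that most cells use. *Rpl10l* (chr12:66283379-66284401, minus strand) is an intronless copy of the X-linked ribosomal protein gene *Rpl10* and serves meiotic cells in which the X chromosome is silent. It was read in 86 cells of D0 (95.6%, 89% to 98.8%), 39 of D1 (78%, 64% to 88.5%) and 80 of D2 (86%, 77.3% to 92.3%). In cells with a read the median was 146 CPM in D0 (0.342 to 410), 34.9 CPM in D1 (1.62 to 303) and 530 CPM in D2 (0.774 to 2116). The mean was 154 ± 98.5, 42.2 ± 57.5 and 547 ± 518 CPM in D0, D1 and D2. The log2 ratio was -1.85 for D1 over D0, 1.82 for D2 over D0 and 3.67 for D2 over D1, and each kept its direction and stayed past 2-fold in every alternative run. D2 had the lower share of cells and the higher level of the pair D0 and D2, so the shares give no order.

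Because *Rpl10l* and *Rpl10* are near-identical, the counting could have split their reads, and the value of *Rpl10l* is uncertain. *Rpl10* had 659 ± 180, 1106 ± 317 and 1080 ± 355 CPM in D0, D1 and D2. *Rpl10l* held on average 18.9% ± 11 of the reads of the pair in D0 (90 cells), 4.33% ± 6.66 in D1 (50 cells) and 28.4% ± 21.8 in D2 (93 cells). The 2 cells of D1 without an *Hprt* read had 249 and 303 CPM of *Rpl10l*, above the highest of the other 48, 132 CPM. Without these 2 cells, a setting chosen after the data were seen, the mean of D1 was 32.5 CPM and the log2 ratio of D1 over D0 was -2.22.

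*Taf7l* (chrX:134460118-134476490, minus strand) codes for a germline form of the transcription factor TFIID subunit TAF7. It had a read in 4 cells of D0 (4.44%, 1.22% to 11%), 6 of D1 (12%, 4.53% to 24.3%) and 4 of D2 (4.30%, 1.18% to 10.6%). The few reading cells differed in level: the median was 11.4 CPM in D0 (3.63 to 35.7), 11.4 CPM in D1 (0.108 to 37.3) and 103 CPM in D2 (20.7 to 313). The mean was 0.689 ± 4.11 CPM, 2.44 ± 7.47 CPM and 5.80 ± 36.3 CPM in D0, D1 and D2. The log2 ratio was 1.03 for D1 over D0, 2.01 for D2 over D0 and 0.98 for D2 over D1. These values rest on 4 cells of D0, 8 of D1 and 4 of D2 with all reads. Of the reads of *Taf7l* and its paralog *Taf7*, *Taf7l* held on average 0.153%, 1.42% and 2.74% in D0, D1 and D2. A single cell of D2 with 313 CPM bears much of the D2 values: with 1 cell left out, D2 over D0 was as low as 1.03 and D2 over D1 as low as 0.01. D1 over D0 was 0.69 when 1 cell was left out and -0.13 in plate columns 1 to 6, D2 over D1 was -0.15 in columns 7 to 12, and D2 over D0 was 0.56 with a pseudocount of 10 CPM.

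*Slc25a31* (chr3:40708855-40726096, plus strand) codes for the ADP/ATP carrier of the mitochondria of male germ cells. It was read in 4 cells of D0 (4.44%, 1.22% to 11%), 7 of D1 (14%, 5.82% to 26.7%) and 1 of D2 (1.08%, 0.0272% to 5.85%). The highest cell had 42.5, 41.5 and 7.02 CPM in D0, D1 and D2. The mean was 1.02 ± 6.20 CPM, 2.25 ± 6.92 CPM and 0.0755 ± 0.728 CPM in D0, D1 and D2, and the log2 ratios were 0.69 for D1 over D0, -0.91 for D2 over D0 and -1.60 for D2 over D1. The 3 thinned reads of D2 against 16 of D0 gave a counting interval of -4.88 to -0.66 for the log2 ratio of reads. With a pseudocount of 10 CPM, D2 over D1 was -0.28, and in plate columns 1 to 6, D2 over D0 was 0.20. The carriers that other cells use were read far more, with means from 211 to 630 CPM for *Slc25a4* and from 1135 to 1939 CPM for *Slc25a5* over the labels.

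**Figure D2:**
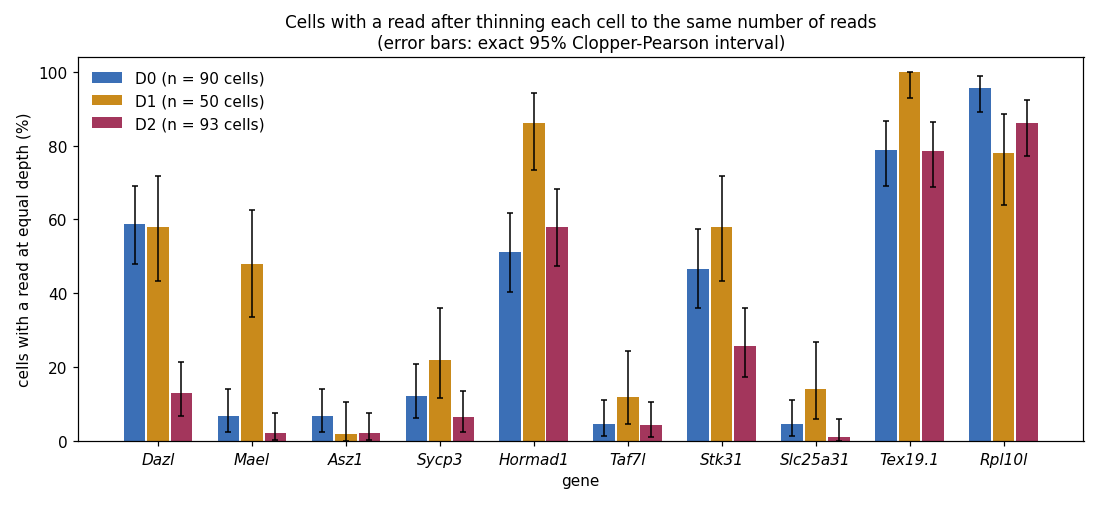
Share of cells with a read of each germline gene after each cell was thinned to 200000 reads, in percent on the vertical axis, for D0, D1 and D2. Bars start at 0 and error bars are the exact 95% intervals of the share. *Mael* is read in 48.0% of cells in D1 against 6.67% and 2.15% in D0 and D2, and *Dazl* in 12.9% in D2 against 58.9% and 58%. The median share over all genes compared was 55.6%, 54% and 16.1% in D0, D1 and D2.

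Per kilobase of exon (GENCODE M21), the mean level in D0 was highest for *Rpl10l* with 151 CPM per kb, followed by *Tex19.1* with 51.8 and *Dazl* with 49.2 CPM per kb. *Hormad1* had 30.1 and *Stk31* 14.1 CPM per kb, and the other 5 genes had between 0.307 and 3.19 CPM per kb. In D1 *Tex19.1* came first with 349 CPM per kb and *Hormad1* second with 120 CPM per kb. In D2 *Rpl10l* with 535 and *Tex19.1* with 181 CPM per kb stood above *Hormad1* with 27.4 CPM per kb. The SDs between cells were near or above the means for all 10 genes, except *Rpl10l* in D0 and *Tex19.1* in D1, so neighbours in this order do not differ beyond the spread between cells. This includes *Rpl10l* and *Tex19.1* in D0, whose means ± SD overlapped.

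Counted together, the 9 genes compared did not go one way. In D1 over D0, 4 were higher by more than 2-fold (*Mael*, *Hormad1*, *Taf7l* and *Tex19.1*), beside 15.1% of all genes compared, and 2 were lower (*Dazl* and *Rpl10l*), beside 26%. In D2 over D0, 3 were higher (*Taf7l*, *Tex19.1* and *Rpl10l*), beside 14.1%, and 1 was lower (*Dazl*), beside 27.4%. In D2 over D1, 1 was higher (*Rpl10l*), beside 17.5%, and 3 were lower (*Mael*, *Hormad1* and *Slc25a31*), beside 21.4%. With so few genes and 1 plate a label, these counts are a description. *Mael*, *Taf7l* and *Slc25a31* entered the comparison only through D1, the label that read them most: averaged over D0 and D2 their shares were 4.41%, 4.37% and 2.76%, under the limit of 5%. Their counts as higher in D1, or as lower in D2 than in D1, are therefore drawn from genes that had to be high in D1 to be counted. With the limit also met without any 1 label, a rule chosen after the data were seen, 6 germline genes and 12087 genes in all were left. Of the 6, 2 were then higher and 2 lower in D1 over D0, beside 12.2% and 26.1% of all genes, 2 higher and 1 lower in D2 over D0, beside 13.6% and 27%, and 1 higher and 1 lower in D2 over D1, beside 18.5% and 19.5%. The median log2 ratio was 0.69, 0.65 and -0.40 for the 9 genes in D1 over D0, D2 over D0 and D2 over D1, against -0.23, -0.18 and -0.05 over all 13881 genes compared. For the 6 it was -0.05, 0.52 and 0.03, against -0.28, -0.17 and 0.02 over the 12087 genes under the same limit. With TMM factors on summed reads the medians over all genes were 0.03, 0.03 and -0.05. Of all genes compared, 19.3% were then higher and 20.3% lower in D1 over D0, and 21.8% higher and 24.2% lower in D2 over D0, while the germline genes gave the same numbers, 4 and 2 in D1 over D0 and 3 and 1 in D2 over D0. In D2 over D1 the number of germline genes that were higher went from 1 to 3 with these factors, beside 18.4% of all genes, and 3 were lower, beside 22%. The comparisons share labels, so they are not independent of each other.

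**Figure D3:**
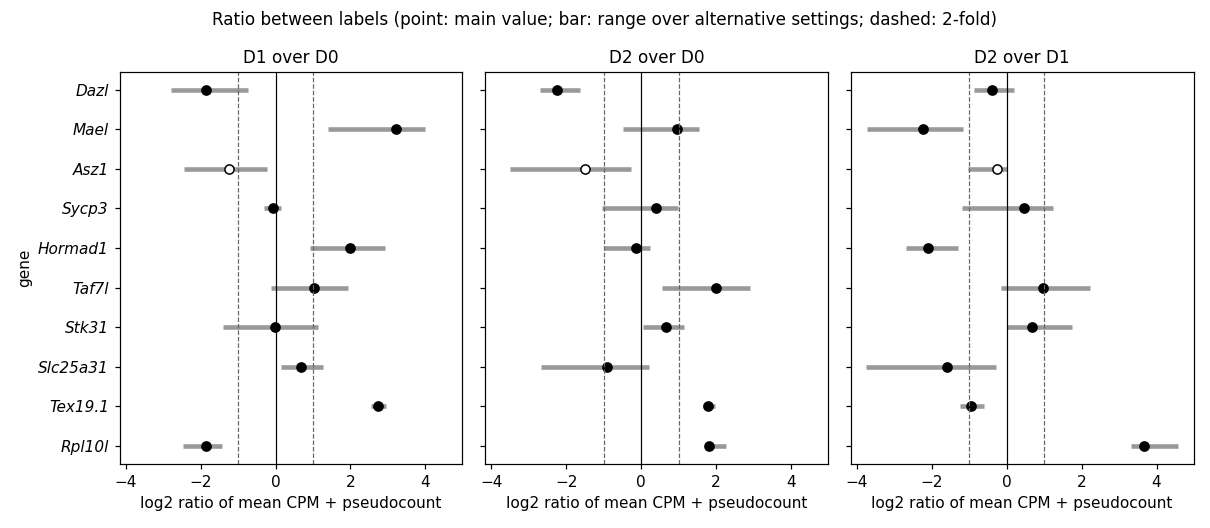
Difference of log2(mean CPM + 1) between labels for each germline gene, in 3 panels (D1 over D0, D2 over D0, D2 over D1). The point is the value as reported, the grey bar runs from the lowest to the highest value over the alternative settings, dashed lines mark 2-fold, and the open point is *Asz1*, which was not among the genes compared. *Tex19.1* lies past 2-fold in D1 and in D2 over D0 in every setting, and *Dazl* in D2 over D0.

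From D0 to D2, shares of cells were lower in the whole table. The share at equal depth was lower in D2 than in D0 for 8 of the 9 genes, and for 87% of all genes compared, so it is no mark of these genes. *Hormad1* was the exception, with 51.1% in D0 and 58.1% in D2. In D1 the share was lower than in D0 for 2 of the 9, and for 43.8% of all genes compared, but 3 of the 9 entered through D1. The median share was 46.7%, 58% and 12.9% in D0, D1 and D2 for the 9 genes, and 55.6%, 54% and 16.1% for all genes compared.

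Within cells, the number of the 10 genes with a read at equal depth had medians of 4, 5 and 3 in D0, D1 and D2, and means of 3.66 ± 1.61, 4.78 ± 1.67 and 2.77 ± 1.03. At least 5 were read in 26 of 90 cells of D0 (28.9%), 29 of 50 of D1 (58%) and 3 of 93 of D2 (3.23%). At most 1 was read in 5 cells of D0, 2 of D1 and 10 of D2. The fewer detected genes of D2 move with its lower number, and their part in it was not tested.

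**Figure D4:**
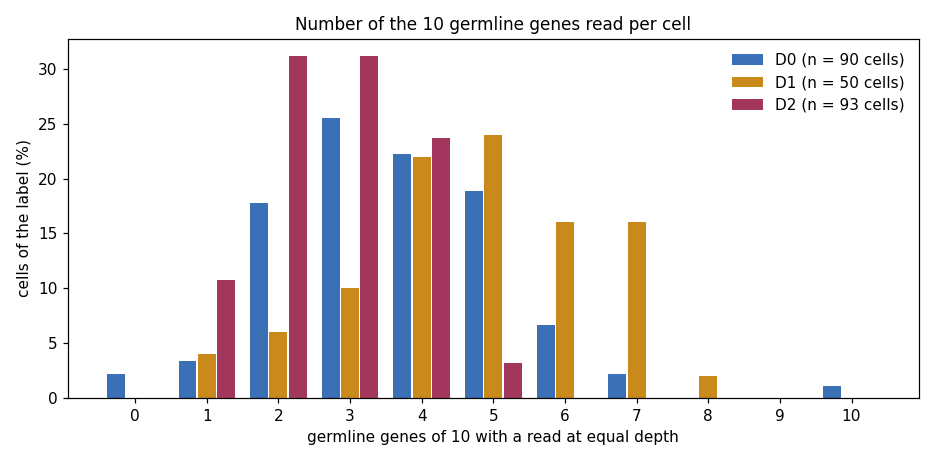
Share of the cells of each label, in percent on the vertical axis, by how many of the 10 germline genes had a read at equal depth (horizontal axis). D1 is centred on 5 genes and D2 on 2 to 4, no cell of D2 reads more than 5, and 1 cell of D0 reads all 10.

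That cell of D0 held every one of the 10 genes, while no other cell read more than 8. It had 2401406 reads, the 24th highest of 90, and 7606 detected genes at equal depth, the 57th highest. It was the highest of D0 in *Asz1* (102 CPM), *Sycp3* (127 CPM) and *Slc25a31* (42.5 CPM), had 1353 CPM of *Dazl*, 142 CPM of *Hormad1* and 162 CPM of *Tex19.1*, and was below 68 cells in *Rpl10l* (73.3 CPM). It also read 30 of the other germline genes listed, where the median of D0 was 15 and the next highest cell had 26. *Pou5f1* (316 CPM), *Nanog* (133 CPM) and *Zfp42* (228 CPM), which mark pluripotent cells, were present. *Kit* (270 CPM) and *Dppa3* (200 CPM), listed as regulators of primordial germ cells, were present too, and *Ddx4* had no read. No cell type is read from these genes. The cell was chosen after its values were seen.

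Over cells, pairs of the 10 genes gave low correlations. Spearman's rho of CPM, for genes with a read in 20% or more of a label's cells with all reads counted, not at equal depth, had a median of 0.15 over 15 pairs in D0 (-0.05 to 0.32), 0.15 over 28 pairs in D1 (-0.18 to 0.42) and 0.02 over 6 pairs in D2 (-0.10 to 0.15). The highest was that of *Mael* and *Stk31* in D1, 0.42 over 50 cells. All values of a cell share 1 library and its depth, and the counts are sparse, so no pair is read as related.

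The de novo methyltransferase genes were higher in D1 and D2 than in D0. The mean of *Dnmt3a* was 5.68, 252 and 86.8 CPM in D0, D1 and D2, that of *Dnmt3b* 114, 367 and 464 CPM, and that of *Dnmt3l* 25.4, 748 and 535 CPM. The germline genes did not share 1 pattern beside them: *Dazl* was lower in both D1 and D2, *Tex19.1* was higher in both, and *Rpl10l* was lower in D1 and higher in D2. Within a label, 54 relations of a germline gene, chosen by the same 20% of cells, to a *Dnmt3* gene over cells were computed, and rho was between -0.24 and 0.60 with a median of 0.03. Only 3 were over 0.3 in size, and all 3 were those of *Tex19.1*: 0.60 with *Dnmt3a* and 0.52 with *Dnmt3b* over 50 cells of D1, and 0.42 with *Dnmt3l* over 93 cells of D2. Pearson's r of log2(CPM + 1) was 0.56, 0.49 and 0.40. On thinned counts rho was 0.61, 0.51 and 0.42, and without the 2 cells farthest from the median of the *Dnmt3* gene it was 0.57, 0.58 and 0.45. *Tex19.1* also went with the number of detected genes at equal depth in D1 (rho 0.46) but not in D2 (0.06), and the part of that number in the relation was not tested. As for the pairs above, cells share 1 library each and its depth, so these 3 values are a description, that of *Dnmt3l* no larger than the highest of the pairs. In D0 the rho of *Tex19.1* was 0.06 with *Dnmt3a*, -0.06 with *Dnmt3b* and 0.01 with *Dnmt3l*. The summed level of the 10 genes, in which the most abundant ones weigh most, had a rho of 0.09, 0.45 and 0.12 with *Dnmt3a*, -0.27, 0.33 and 0.05 with *Dnmt3b*, and -0.20, 0.16 and 0.27 with *Dnmt3l* in D0, D1 and D2. *Dazl* had no relation over 0.3 in size in D0 and D1, where it was read in enough cells.

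**Figure D5:**
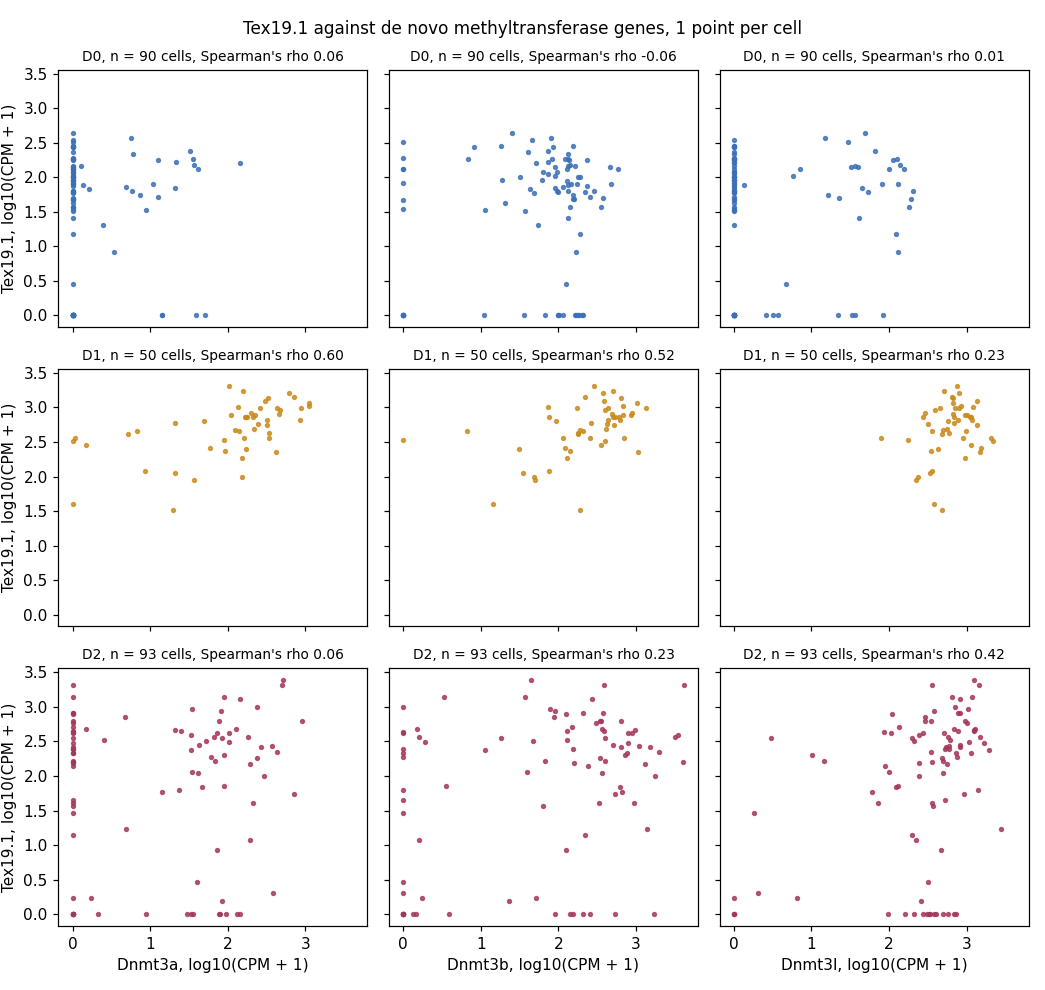
*Tex19.1* (vertical axis) against *Dnmt3a*, *Dnmt3b* and *Dnmt3l* (horizontal axes), all as log10(CPM + 1), with 1 point per cell and 1 row of panels per label. The points slope up for *Dnmt3a* and *Dnmt3b* in D1 (rho 0.60 and 0.52 over 50 cells) and for *Dnmt3l* in D2 (0.42 over 93 cells), and show no slope in D0 (0.06, -0.06 and 0.01 over 90 cells).

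A wider list of other germline genes had 75 genes in the table, of which 7 had no read in passing cells and 52 were among the genes compared. In D1 over D0, 19 of the 52 were higher by more than 2-fold and 8 lower, beside 15.1% and 26% of all genes compared. In D2 over D0, 17 were higher and 6 lower, beside 14.1% and 27.4%. In D2 over D1, 9 were higher and 21 lower, beside 17.5% and 21.4%. Of the 52, 14 met the limit on the share of cells only with the share of 1 label included, so part of these counts is fixed by the limit. In the 38 others, 13 were higher and 8 lower in D1 over D0, beside 12.2% and 26.1% of all genes under that rule, and 14 higher and 4 lower in D2 over D0, beside 13.6% and 27%. In D2 over D1, 9 of the 38 were higher and 13 lower, beside 18.5% and 19.5%. The median log2 ratio in D1 over D0, D2 over D0 and D2 over D1 was 0.61, 0.18 and -0.30 over the 52 genes and 0.50, 0.25 and -0.04 over the 38. Among those higher in D1 were *Stra8*, which starts meiosis, at 1.04, 50 and 10.3 CPM in D0, D1 and D2, and *Rhox5*, a homeobox gene, at 73, 568 and 248 CPM. *Cyct*, the testis form of cytochrome c, had 10.3, 131 and 11.7 CPM. Lower in both D1 and D2 than in D0 was *Tex15*, which acts in piRNA-guided DNA methylation, at 73, 13.5 and 1.01 CPM in D0, D1 and D2. *Stag3*, the meiotic cohesin subunit, was lower in D1 (9.60 CPM) and higher in D2 (102 CPM) than in D0 (49.7 CPM).

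Of 24 repressors known to act on germline promoters, all were among the genes compared. In D1 over D0, 1 was higher by more than 2-fold and 7 were lower, in D2 over D0 none was higher and 8 were lower, and in D2 over D1 1 was higher and 8 lower. Of all genes compared, 15.1%, 14.1% and 17.5% were higher and 26%, 27.4% and 21.4% lower in the same order, so more genes were lower than higher in the whole table too. *Mga* had 496, 175 and 147 CPM in D0, D1 and D2, and *L3mbtl2*, of the same complex, had 109, 269 and 181 CPM. *Max* and *E2f6* were singled out after their values were seen, because their letters were searched above. *Max* had 39.7, 51.6 and 61.4 CPM. *E2f6* had 24.1, 9.53 and 0.558 CPM in D0, D1 and D2, with a read in 43, 15 and 4 cells. Of 11 DNA methylation genes, 4 were higher and 3 lower in D1 over D0, 4 higher and 2 lower in D2 over D0, and 3 higher and 3 lower in D2 over D1, with 26%, 27.4% and 21.4% of all genes lower and 15.1%, 14.1% and 17.5% higher. *Uhrf1*, which guides the maintenance methyltransferase, had 913, 333 and 273 CPM in D0, D1 and D2.

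Markers of other cells were read beside these genes. Of 8 genes that mark 2-cell-like cells, a rare state of embryonic stem cells, 6 had no read in any passing cell. The summed level of 8 fibroblast markers had medians of 45.7, 162 and 19.3 CPM in D0, D1 and D2. *Vim*, which stem cells also express, made most of it, with means of 70.2, 181 and 106 CPM. Without *Vim* the summed level of the other 7 had a median of 0 CPM and means of 0.452, 5.81 and 1.32 CPM in D0, D1 and D2, with a read in 7, 21 and 7 cells. *Col1a2* and *Col3a1* were at 0 in D0 and D2, *Dcn* in D0, and *Lum* in D1 and D2. With *Vim*, the sum ran from 0 to 434 CPM in D0 (4 with a read), to 518 CPM in D1 (6 with a read) and to 1250 CPM in D2 (4 with a read), and *Postn* was at 0 in every label. That of 8 primitive endoderm markers had a median of 0 CPM in every label, with *Foxa2* at 0, and that of 6 trophectoderm markers had medians of 13.6, 1.02 and 0 CPM in D0, D1 and D2. *Ddx4*, which marks later germ cells and was singled out after its values were seen, was read in 9 cells of D0, 24 of D1 and 7 of D2 at means of 2.14, 44.7 and 8.76 CPM. The part of such cells in the results was not tested.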

How the data were processed

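The authors sequenced the RNA of single cells by scNMT-seq and deposited raw counts, whole numbers of reads for each gene in 288 wells, although the labels describe a normalized table. Per the submitters' processing notes the reads were aligned with HISAT2 to GRCm38; the counting tool, annotation and use of strand are not given in the sources used here. No pair of wells had identical counts.

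Passing cells had over 200000 reads, over 2000 genes and a mitochondrial share under 0.15. Counts were divided by the total of the cell (CPM) and averaged with equal weight. For shares, each cell was thinned once to 200000 reads. A gene was compared when its share averaged over the 3 labels was at least 5%, and was called higher or lower past 1 on the log2(mean CPM + 1) scale, with no test. Positions and exon lengths came from GENCODE M21. Named genes were the 10 genes, the *Dnmt3* genes and paralogs that could share reads. Of the lists of other germline genes, repressors and DNA methylation genes, up to 6 past 2-fold in each direction with the highest mean level were eligible. Genes outside this rule were also named, among them *Max*, *E2f6*, *Ddx4*, *Hprt* and markers and regulators of cell types. The genes and lists were chosen with earlier results of these data known. The alternatives were other scalings, pseudocounts, limits on cells, thinning depths and plate sides. The code was tested on simulated data. Python 3.11.15, numpy 2.4.6, pandas 2.3.3, scipy 1.17.1, matplotlib 3.10.9 and, for TMM factors, edgeR 4.0.16 in R 4.3.3 were used.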

Additional observations from a re-analysis of the deposited data

Results flagged for a closer look

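Wells that failed the limits on cells were left out, apart from the alternative with all wells over 10000 reads, which took in some of them, and reads of the 10 germline genes appeared in them above the 3 that a count of 0 allows. The 6 failing wells labelled D0 held 28 such reads in 2 wells, of 114562 reads in all. The 46 failing wells labelled D1 held 240 in 17 wells, of 357724 reads. The 3 failing wells labelled D2 held 1328, all in 1 well, of 1459044 reads.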

How the results depend on the processing

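Alternatives of shares and log2 ratios were set against the interval of each value. A log2 ratio was allowed to move by the distance from the middle of its counting interval to an end. That interval is of the ratio of thinned reads, with no pseudocount. Of 350 log2 ratios, 239 moved by no more than this distance and 110 moved further. Another 1, past 2-fold as reported, changed sign: *Taf7l* in D1 over D0 was -0.13 in plate columns 1 to 6. Counting values within 2-fold too, the sign turned in 17 of the 350, over 11 different ratios, and 10 of the 17 were values of 1 side of the plate. The other 16 turned from reported values within 2-fold: *Sycp3* in all 3 comparisons, *Mael*, *Hormad1* and *Slc25a31* in D2 over D0, *Stk31* in D1 over D0, and *Dazl*, *Asz1* and *Taf7l* in D2 over D1. Of 210 shares 197 stayed within their interval, and of 18 correlations of the summed level of the 10 genes with a *Dnmt3* gene all 18 moved by no more than 0.1. The number of genes higher or lower by more than 2-fold was within 1.5 times its value in 67 of 82 cases. In D1 over D0, 1 gene was lower in place of 2 in plate columns 1 to 6. In D2 over D0, 5 were higher in place of 3 in plate columns 1 to 6. In D2 over D0, 2 were lower in place of 1 with summed reads, with a pseudocount of 0.1 CPM, on either side of the plate and with no limit on the share of cells. In D2 over D1, 3 were higher in place of 1 with TMM or median-of-ratios factors and in plate columns 7 to 12, and 2 with a pseudocount of 0.1 CPM, with all wells over 10000 reads and in plate columns 1 to 6. With the limit on the share of cells also met without any 1 label, 2 were higher in place of 4 in D1 over D0 and 1 lower in place of 3 in D2 over D1, since 3 genes were left out. The causes of the others were not tested. That limit, leaving out the 2 cells of D1 without *Hprt*, and leaving out each cell in turn were chosen after the data were seen, and the second changed none of the counts. No paired analysis was possible because each label is 1 plate of single cells and a well position pairs no cells. Depth limits *Asz1*, *Slc25a31* and *Taf7l*, with under 100 thinned reads in each label.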

Other observations

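Regulators of primordial germ cells, the embryonic cells in which germline genes are first switched on, did not go one way, and pluripotent cells use several of them too. Of 8 of the 9 listed genes that could be compared, 2 were higher and 5 lower by more than 2-fold in D1 over D0, beside 15.1% and 26% of all genes compared. In D2 over D0, 2 were higher and 3 lower, beside 14.1% and 27.4%, and in D2 over D1, 2 were higher and none lower, beside 17.5% and 21.4%. All genes were also lower more often than higher in D1 and D2 over D0. *Kit*, a receptor kinase, had 445 ± 272, 18.2 ± 29.1 and 13.1 ± 87.5 CPM in D0, D1 and D2. *Prdm14*, a repressor of the *Dnmt3* genes, had 42.7 ± 53.9, 2.58 ± 9.57 and 8.40 ± 39.8 CPM, and *Tfap2c* had 30 ± 34.1, 7.0 ± 19.5 and 12.1 ± 48.0 CPM. *Dnd1*, which codes for an RNA-binding protein, was higher in both, with 2.08 ± 6.82, 13.2 ± 19.7 and 18.2 ± 45.1 CPM. *Prdm1* was lower in D1 and higher in D2, with 13.5 ± 32.7, 2.35 ± 8.06 and 31.9 ± 151 CPM. These genes were named after their values were seen.

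Within the D0 plate, some of the germline genes were read more often on 1 side. In plate columns 7 to 12 against columns 1 to 6, *Dazl* was read in 33 of 47 cells (70.2%, 55.1% to 82.7%) against 20 of 43 (46.5%, 31.2% to 62.3%). *Hormad1* was read in 31 (66%, 50.7% to 79.1%) against 15 (34.9%, 21% to 50.9%), and *Stk31* in 30 (63.8%, 48.5% to 77.3%) against 12 (27.9%, 15.3% to 43.7%). These shares, at equal depth, were higher in columns 7 to 12 by more than 20 percentage points. The same held for 1.77% of the 13881 genes compared. Of the 10 genes, 7 were higher and 3 lower in columns 7 to 12, with a median difference of 2.62 percentage points. Of all genes compared, 57.6% were higher there. The median difference over all genes compared was 1.19 percentage points. The mean number of the 10 genes read per cell was 4.13 ± 1.75 in columns 7 to 12 and 3.14 ± 1.26 in columns 1 to 6. In D1 it was 4.73 ± 1.76 and 4.83 ± 1.61, and in D2 2.74 ± 1.04 and 2.81 ± 1.04. The side of the plate carries no label, and the difference was seen after the data were examined and has no test.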
